A study of Mus musculus with 9 samples.

Results

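Semaphorins, ephrins, Slits and netrins, the ligands that steer growing axons, and their plexin, Eph, Robo, DCC and UNC5 receptors were followed across 9 RNA libraries of sorted cortical nuclei of adult mice. Of 55401 annotated genes, 74 had a symbol of these families (Sema, Plxn, Epha, Ephb, Efna, Efnb, Robo, Slit, Ntn or Unc5, with Dcc and Neo1, and without Unc5c and the Slitrk genes), and the 63 with at least 100 counts summed over the 9 libraries are described. They comprised 18 semaphorins, 8 plexins, 4 ephrin-A and 3 ephrin-B genes, 8 EphA and 4 EphB receptors, 3 Slits, 3 Robos, 4 netrins, 2 netrin-Gs, Dcc and Neo1, and 3 Unc5 receptors. The last of the 63, Unc50, is matched by its name alone and encodes a Golgi protein unrelated to the UNC5 receptors. Just inside the minimum lay Efna1, with 110 counts, and Epha1, with 156. The 11 symbols below it were led by Sema3b, with 97 counts, and Plxnb3, with 64.

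The nuclei carried NeuN, a protein of neuronal nuclei, and came from the cortex of animals aged 7 to 9 months. There were 3 groups of 3 libraries: untreated wild-type mice, and P301S Tau transgenic mice that received either a scrambled peptide or the Cdk5i peptide. P301S is a tau mutation found in inherited frontotemporal dementia, and Cdk5 is a neuronal kinase that phosphorylates tau and several proteins of the growth cone. Both peptides were injected into the abdomen every second day at 20 mg/kg, and wild-type mice received none, so genotype and injection cannot be told apart in a comparison with wild type. The labels name neither the transgenic line nor the promoter that drives it, and leave unsaid whether libraries come from different animals; p-values then reflect library spread alone, which may be technical.

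In development these families act at the growth cone. Semaphorins signal through plexins, with neuropilins as co-receptors for the secreted class 3 members, and mostly repel. Ephrin-A ligands are tethered by a lipid anchor and ephrin-B ligands span the membrane; both bind Eph receptor tyrosine kinases and can signal back into the cell that bears them. Slits repel through Robo receptors, while netrin-1 attracts through DCC and repels when UNC5 receptors take part. In the adult cortex many of these genes stay on in neurons, where they act at synapses and on spine shape.

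Libraries held 21584712 to 26715938 counts, of which the 63 genes took 1.17 to 1.26%. Levels are counts per 1000000 (CPM) of library sizes scaled by TMM, a factor that offsets differences in composition. Reads were counted over whole genes, introns included. Of 7 general neuronal markers, 6 were read in all libraries, Rbfox3, the gene of NeuN, at 1106 to 1558 CPM, while Tubb3 had 0 counts, which with this way of counting does not show absence. Defining markers of other cells were low: Cldn5 of endothelium at 0 to 0.142 CPM, Csf1r of microglia at 0.272 to 0.664, Aqp4 of astrocytes at 0.714 to 1.85 and Mog of oligodendrocytes at 0.142 to 0.386. Markers of striatal neurons, which a cortical dissection can include, summed to 2181 to 4307 CPM over 13 genes. Pde10a (1279 to 2379 CPM), Foxp1 (327 to 542) and Meis2 (212 to 581) carried this sum. Rarb (86.0 to 339), Rgs9 (69.0 to 251) and Drd2 (22.3 to 89.6) differed widely between libraries, and Drd1 was low at 6.40 to 13.0.

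To compare genes, levels were divided by the length of the gene, as CPM per kilobase (kb) of gene span, and are given as the mean with the range over 9 libraries. On this scale the 62 genes other than Unc50 ran from 0.0297 for Sema3d to 3.20 for Ephb6, with a median of 0.800. The plot of levels by family shows this order.

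**Figure D1:**
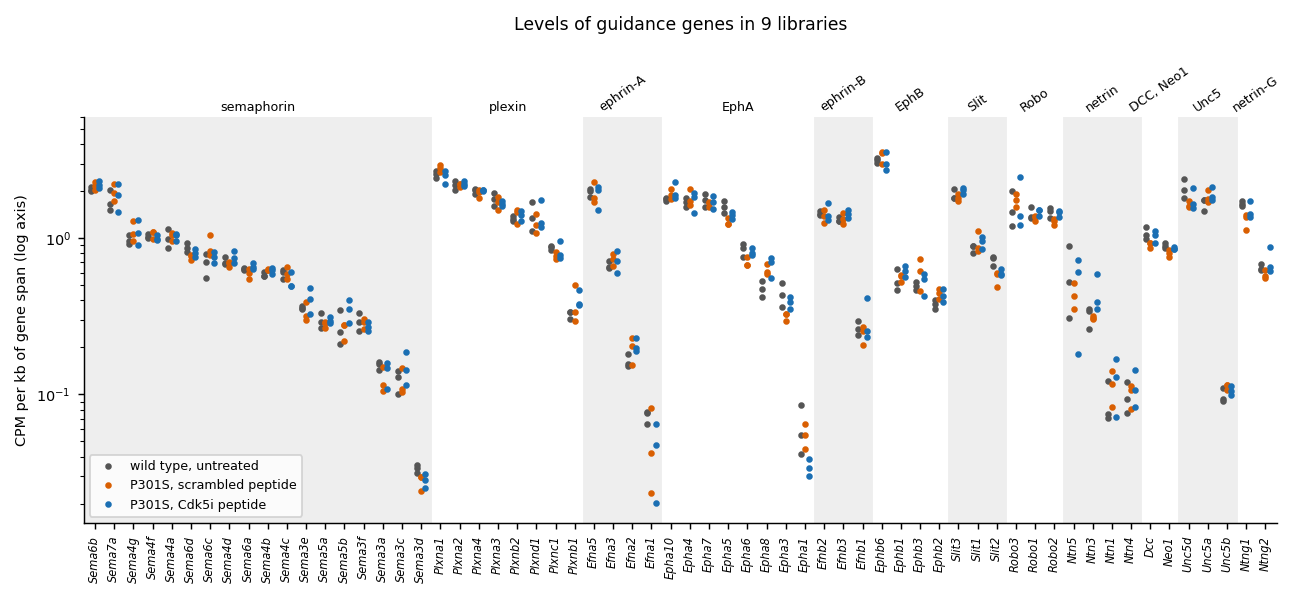
Level of each of 62 guidance genes in each library (points, coloured by group), as CPM per kb of gene span on a log axis, ordered within each family by the mean. Plexins sit near the top with 6 of 8 above 1, class 3 semaphorins and the netrins near the bottom, and the 3 groups overlap for most genes.

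Among the semaphorins, membrane-bound members of classes 4, 6 and 7 led. Sema6b, a transmembrane semaphorin that binds A-type plexins, was the highest at 2.14 (1.99 to 2.33) CPM per kb, followed by Sema7a, which is held by a lipid anchor and binds plexin C1, at 1.85 (1.47 to 2.22). The 5 secreted class 3 members lay at or below 0.366, as did the transmembrane Sema5a and Sema5b at 0.292 (0.266 to 0.333) and 0.291 (0.209 to 0.401), with Sema3e at 0.366 (highest library 0.480), Sema3a, the first described collapsing factor of growth cones, at 0.138 (0.105 to 0.161), and Sema3d at 0.0297 (0.0241 to 0.0351). Their receptors were high. Plxna1 measured 2.62 (2.21 to 2.96), Plxna2 2.20 (2.03 to 2.33) and Plxna4, a main receptor of Sema3a together with neuropilin-1, 1.99 (1.82 to 2.05). Plxnb1 was the lowest plexin at 0.370 (0.297 to 0.501).

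In the ephrin system Efna5 led the A-type ligands, and several receptors were at a like level. Efna5, whose protein guides topographic maps, measured 1.93 (1.52 to 2.27) CPM per kb against 0.703 (0.596 to 0.824) for Efna3, the next ephrin-A. Efnb2 and Efnb3 were close, at 1.43 (1.26 to 1.68) and 1.36 (1.24 to 1.52), with overlapping ranges; other genes on the same strand cover 26.0% of Efnb2, whose pairs there go uncounted, and 0% of Efnb3. Of the EphA receptors, Epha10, which lacks kinase activity, measured 1.90 (1.73 to 2.29), and Epha4, which unusually binds ligands of both classes, 1.75 (1.45 to 2.07); Epha7, at 1.70 (1.53 to 1.92), overlapped with both. The kinase-dead Ephb6 was the highest of all guidance genes on this scale at 3.20 (2.72 to 3.58), while Ephb1 was at 0.572 (0.463 to 0.661).

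Slits and Robos were both read. Slit3 measured 1.91 (1.72 to 2.10) CPM per kb, Slit1 0.914 (0.809 to 1.12) and Slit2 0.627 (0.485 to 0.756). Of the Robo genes, Robo3 measured 1.66 (1.20 to 2.46), Robo1 1.41 (1.28 to 1.58) and Robo2 1.39 (1.22 to 1.57), and the 3 ranges overlapped. The netrin system was lopsided. Secreted netrins were low, the highest being Ntn5 at 0.504 (0.181 to 0.896) and Ntn3 at 0.358 (0.264 to 0.590), with Ntn1 at 0.108 (0.0702 to 0.169), whereas the receptors Dcc and Neo1 measured 1.00 (0.859 to 1.18) and 0.852 (0.756 to 0.933), and Unc5d and Unc5a 1.83 (1.57 to 2.38) and 1.80 (1.49 to 2.12). The netrin-Gs, lipid-anchored relatives that bind NGL adhesion proteins at synapses instead of DCC, measured 1.49 (1.13 to 1.74) for Ntng1 and 0.649 (0.560 to 0.880) for Ntng2.

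Spread between libraries differed widely among the genes. The coefficient of variation over all 9 libraries had a median of 10.6%, and was lowest for Plxna4 (3.86%), Plxna2 (4.32%) and Sema4b (4.34%). The netrins were among the most variable: Ntn5 reached 43.4%, Ntn1 32.6% and Ntn3 26.3%, beside Efna1 (41.8%) and Epha1 (34.8%), both of which are read near the count minimum. Ntn1 measured 14.3, 23.2 and 13.4 CPM in wild type, 15.8, 27.1 and 22.3 with scrambled peptide and 24.6, 13.7 and 32.4 with Cdk5i, so low and high libraries occurred in every group. Robo3 varied in a like way within the groups, at 21.1, 35.1 and 26.0 CPM in wild type, 27.8, 33.8 and 30.7 with scrambled peptide and 43.2, 24.4 and 21.3 with Cdk5i.

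The first comparison set P301S mice given scrambled peptide against wild type. All 3 libraries with scrambled peptide were below the 3 of wild type for Slit2, the receptors Epha3, Epha5, Epha6, Dcc, Neo1, Robo2, Unc5d and Plxnc1, the netrin-G gene Ntng1 and the semaphorins Sema3d and Sema6d, and above them for Epha8, Ephb2 and Sema4b. The differences were modest, the largest among genes with an unadjusted p under 0.05 being a log2 fold change of -0.46 for Epha3. None of the 63 genes passed the edgeR quasi-likelihood test with Benjamini-Hochberg adjustment over all 16046 genes tested (lowest adjusted p = 0.22), where 0.0810% of all genes did. Before adjustment 13 of the 63 (20.6%) had p under 0.05 against 10.1% of all genes tested, 10 of them lower with scrambled peptide (5.20% of all genes) and 3 higher (4.86%). DESeq2, the other tool run, called Slit2, Epha5 and Epha3 with its own adjustment. These were 3 of the 75 it called among 32394 genes with a count. Groups did not overlap for 15 genes (23.8%, against 16.3% of all genes tested), 12 lower (8.03% of all genes) and 3 higher (8.26%), and 28 of the 63 had a log2 fold change above 0 (51.7% of all genes).

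Slit2 (ENSMUSG00000031558, chromosome 5, 47983138 to 48307733, GRCm38), a midline repellent that binds Robo1 and Robo2, had the lowest adjusted p among the 63. It measured 246, 243 and 216 CPM in wild type, 158, 192 and 193 with scrambled peptide and 188, 205 and 192 with Cdk5i. All 6 libraries of transgenic mice lay below the 3 of wild type. The log2 fold change for scrambled peptide was -0.38 (95% interval -0.56 to -0.19), with an edgeR adjusted p of 0.22 and 0.0204 in DESeq2. The other Slits differed less, with log2 fold changes of 0.12 for Slit1 and -0.05 for Slit3. Of their receptors, Robo2 measured 816, 775 and 698 CPM in wild type and 688, 635 and 665 with scrambled peptide, a log2 fold change of -0.20 (-0.37 to -0.04), and Robo1 had one of -0.09 (-0.26 to 0.09).

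Several EphA receptors were lower as well. Epha5 (ENSMUSG00000029245, chromosome 5, 84054761 to 84417382), a receptor of ephrin-A ligands, measured 622, 578 and 527 CPM in wild type and 446, 445 and 488 with scrambled peptide. Epha3 (ENSMUSG00000052504, chromosome 16, 63543534 to 63864175) measured 164, 138 and 117 CPM in wild type against 104, 94.2 and 106 with scrambled peptide. Epha6 (ENSMUSG00000055540, chromosome 16, 59653483 to 60605531) measured 869.6, 829 and 725 against 717, 644 and 642 CPM in the same order. In each case every wild-type library was above every library with scrambled peptide, for Epha6 by a narrow margin. Log2 fold changes were -0.33 for Epha5 (-0.49 to -0.16), -0.46 for Epha3 (-0.71 to -0.21) and -0.27 for Epha6 (-0.45 to -0.10), with edgeR adjusted p of 0.23, 0.271 and 0.317. DESeq2 gave adjusted p of 0.0228 for Epha5 and 0.025 for Epha3. Their main ligand gene here, Efna5, had a log2 fold change of -0.03 (-0.33 to 0.27).

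Epha8 (ENSMUSG00000028661, chromosome 4, 136929419 to 136956816), a receptor of the same class on a short gene, went the other way. It measured 11.5, 14.7 and 13.0 CPM in wild type, 16.0, 18.7 and 16.5 with scrambled peptide and 19.2, 15.1 and 20.4 with Cdk5i. All 6 transgenic libraries lay above the 3 of wild type. The log2 fold change for scrambled peptide was 0.39 (0.12 to 0.66, edgeR adjusted p = 0.33). Ephb2, a receptor of B-type ephrins that clusters with NMDA receptors, measured 66.1, 76.3 and 71.7 CPM in wild type and 88.7, 76.7 and 84.5 with scrambled peptide, groups separated by under 1 CPM, with a log2 fold change of 0.22. All 4 EphB genes had positive fold changes, of which only Ephb2 had an unadjusted p under 0.05. The transmembrane semaphorin gene Sema6c measured 7.54, 9.55 and 10.7 CPM in wild type against 11.3, 14.1 and 10.6 with scrambled peptide, with overlapping groups and a log2 fold change of 0.37.

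In the netrin system Dcc, Neo1, Unc5d and both netrin-Gs had lower values, Unc5a and Unc5b did not, and the netrins were divided. Dcc, the attractive netrin receptor (ENSMUSG00000060534, chromosome 18, 71253634 to 72351069), measured 1156, 1296 and 1078 CPM in wild type and 943, 1023 and 1024 with scrambled peptide, a log2 fold change of -0.24 (-0.43 to -0.05). Its relative Neo1, neogenin, had a log2 fold change of -0.16 (-0.29 to -0.03). Unc5d, a repulsive receptor that marks upper-layer neurons in development, measured 1364, 1035 and 1159 CPM in wild type against 989, 918 and 909 with scrambled peptide, all 3 wild-type libraries being higher, with a log2 fold change of -0.34 (-0.59 to -0.08). Unc5a and Unc5b had log2 fold changes of 0.15 and 0.19, both with intervals that include 0. Ntng1 measured 599.6, 582 and 633 CPM in wild type and 510.5, 411 and 499 with scrambled peptide, a log2 fold change of -0.35 (-0.57 to -0.14, edgeR adjusted p = 0.307). Of the 4 netrins 2 had positive and 2 negative fold changes, the largest being -0.41 for Ntn5, with an interval of -1.71 to 0.90 that shows how little these data limit it.

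Few semaphorins or plexins had a low p. Negative fold changes were found for 10 of 18 semaphorins, with a median of -0.04 on the log2 scale, and for 4 of 8 plexins, with a median of -0.02, against a median of 0.01 over all genes tested. Sema6d, a ligand of plexin A1, measured 499, 541 and 469 CPM in wild type and 421, 446 and 449 with scrambled peptide, a log2 fold change of -0.20 (-0.35 to -0.04). No plexin had an unadjusted p under 0.05. Plxna4 measured 908, 911 and 849.7 CPM in wild type against 807, 874 and 898 with scrambled peptide, a log2 fold change of -0.05 with an interval of -0.20 to 0.10.

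**Figure D2:**
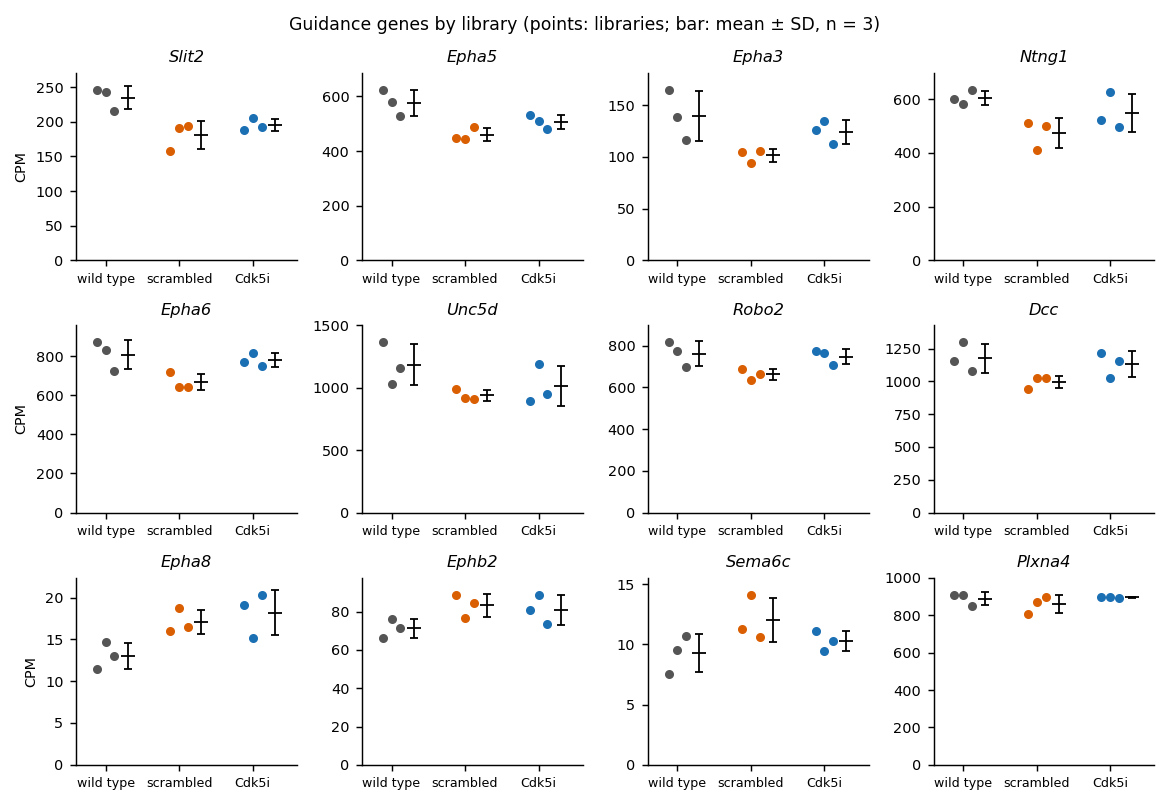
CPM in each library (points) for 12 guidance genes in wild type, P301S with scrambled peptide and P301S with Cdk5i, with the group mean and SD beside them (n = 3); each vertical axis starts at 0. Slit2 is lower and Epha8 higher in all 6 transgenic libraries than in wild type, while the groups overlap for Plxna4 and Sema6c.

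The promoters of the 3 lower genes that DESeq2 called and of Epha8, the gene with the lowest p among the higher ones, are shown because these genes had the lowest p-values in each direction. Windows of 300 bases, from 250 before to 50 after a transcript start, were taken from RefSeq on GRCm38.p6, which held one for 54 of the 63 genes, 39 of them within 100 bases of the gene start in the files. Capitals mark, on either strand, the GC box bound by Sp1 (GGGCGG), the TATA box (TATAAA), the E-box in its CACGTG form and the cAMP response element (TGACGTCA); matches that overlap run together.
Slit2, chr5:47982905-47983204, plus strand: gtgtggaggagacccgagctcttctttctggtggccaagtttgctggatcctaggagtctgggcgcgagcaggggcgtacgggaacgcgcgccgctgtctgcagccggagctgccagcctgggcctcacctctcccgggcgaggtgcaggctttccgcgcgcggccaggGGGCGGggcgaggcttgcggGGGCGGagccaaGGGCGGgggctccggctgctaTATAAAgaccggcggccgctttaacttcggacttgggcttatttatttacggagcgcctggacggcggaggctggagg
Epha5, chr5:84417333-84417632, minus strand: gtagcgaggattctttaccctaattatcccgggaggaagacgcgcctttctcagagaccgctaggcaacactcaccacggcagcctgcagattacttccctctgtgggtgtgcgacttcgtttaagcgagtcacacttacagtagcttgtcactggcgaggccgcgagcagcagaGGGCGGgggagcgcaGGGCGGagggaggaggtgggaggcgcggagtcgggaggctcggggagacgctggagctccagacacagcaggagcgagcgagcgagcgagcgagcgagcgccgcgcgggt
Epha3, chr16:63864126-63864425, minus strand: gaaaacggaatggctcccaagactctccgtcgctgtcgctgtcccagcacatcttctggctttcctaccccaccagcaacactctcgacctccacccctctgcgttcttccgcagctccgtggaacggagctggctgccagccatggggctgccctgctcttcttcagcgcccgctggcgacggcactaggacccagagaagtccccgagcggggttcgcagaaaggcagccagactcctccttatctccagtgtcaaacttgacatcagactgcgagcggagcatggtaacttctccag
Epha8, chr4:136956767-136957066, minus strand: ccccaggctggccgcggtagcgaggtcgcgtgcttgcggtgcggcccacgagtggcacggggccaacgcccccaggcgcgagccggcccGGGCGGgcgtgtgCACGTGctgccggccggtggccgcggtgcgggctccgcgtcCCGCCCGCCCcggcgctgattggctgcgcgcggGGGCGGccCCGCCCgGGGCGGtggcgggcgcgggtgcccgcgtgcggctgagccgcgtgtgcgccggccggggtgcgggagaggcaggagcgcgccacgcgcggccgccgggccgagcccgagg
Slit2 held 3 GC boxes and a TATA box with 30 CpG dinucleotides, Epha5 2 GC boxes with 30 CpGs, Epha3 none of the 4 motifs with 18 CpGs, and Epha8 GC boxes and an E-box with 56 CpGs and 84.3% G and C. Guidance promoters had a median of 23 CpGs per window against 7 over 32544 RefSeq windows. The latter are all distinct windows of 300 bases, whereas each guidance gene gave only the window nearest its start. The sets are thus unlike, and the contrasts with all windows cannot be read as a trait of guidance genes. A GC box was found in 41 of 54 (75.9%, against 35.9% of all windows), a TATA box in 2 (3.70%, against 13.6%), namely Slit2 and Efnb2, the E-box in 3 (5.56%, against 7.17%) and the cAMP response element in 0 (against 1.80%). These matches describe letters in these windows and not binding.

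Most of the lower genes were long, by a cut of 200 kb chosen after values were seen. Whether another trait, such as level, goes with the result as closely was not tested. Of the 10 lower genes with an unadjusted p under 0.05, 9 spanned over 200 kb. Among all 63 genes, 18 were that long: Dcc, Epha3, Epha5, Epha6, Ephb1, Robo1, Robo2, Slit2, Slit3, Unc5d, Efna5, Ntng1, Plxna4, Sema3a, Sema3d, Sema3e, Sema5a and Sema6d. Of these, 17 had negative fold changes and only Ephb1 a positive one (0.06), with a median of -0.22. In the 29 guidance genes under 50 kb the median was 0.08, and 10 were negative. Long genes as a whole leaned the same way: of 1059 genes over 200 kb, 771 were negative with a median of -0.08, and 20.3% had an unadjusted p under 0.05, as did 9 of the 18 long guidance genes. Across the 63 genes, which are not independent replicates and come from the same libraries, Pearson's r between log2 fold change and log2 span was -0.39 (Spearman's rho -0.435), against -0.125 (-0.14) across all 16046 genes tested.

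The 18 long genes summed to 10428, 10329 and 9594 CPM in wild type, to 8739, 8703 and 9216 with scrambled peptide and to 9916, 9990.3 and 9408 with Cdk5i. All 3 scrambled libraries were lower than the other 6. The 29 short genes summed to 684 to 712 CPM in wild type and 724 to 754 with scrambled peptide, a difference in the other direction. When a trend of level on gene length was taken out of each library, 12 of the 18 long genes were negative with a median of -0.10. Of the 18, 4 (22.2%) had an unadjusted p under 0.05, against 9 before. Of all 1059 genes over 200 kb, 550 were then negative with a median of -0.005, and 15.6% had an unadjusted p under 0.05. The trend was fitted to all genes tested, so this small median follows from the fit and is not a result. Over all 63 genes the 13 with p under 0.05 became 8 (12.7%, against 10% of all genes tested), 5 lower and 3 higher, all of them among the 13. Slit2, at a log2 fold change of -0.30, Epha5 at -0.25, Epha3 at -0.39, Ntng1 at -0.28, Neo1 at -0.13 and Epha8 at 0.37 were among the 8. Dcc, at -0.09, Epha6 at -0.14, Robo2 at -0.10, Sema6d at -0.09 and Unc5d at -0.23 were not, and Robo1, Slit3, Plxna4 and Efna5 turned positive, at 0.03, 0.05, 0.04 and 0.03.

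Summed markers of inhibitory neurons and of oligodendrocytes did not overlap between scrambled peptide and wild type. The 14 markers of inhibitory neurons summed to 2721, 2793 and 2364 CPM in wild type, 2117, 2235 and 2347 with scrambled peptide and 2722, 2609 and 2446 with Cdk5i, a sum carried by Erbb4 (915 to 1268 CPM over the 9 libraries) and Adarb2 (670 to 944 CPM). Gene by gene the list was divided between scrambled peptide and wild type, with 8 of 14 fold changes positive, a median of 0.02, and 3 genes lower and 0 higher at an unadjusted p under 0.05. The 14 oligodendrocyte markers summed to 167, 159 and 160 CPM in wild type, 203, 188 and 214 with scrambled peptide and 201, 199 and 156 with Cdk5i. Mbp (56.4 to 107 CPM over the 9 libraries) and Enpp2 (74.2 to 102 CPM) carried this sum. Of 10 tested, 9 had positive fold changes between scrambled peptide and wild type (median 0.31) and 4 had an unadjusted p under 0.05. In the same comparison 5 of 6 general neuronal markers tested were negative (median -0.16, 2 with an unadjusted p under 0.05). Of 13 striatal markers 11 were positive (median 0.30, 0 with an unadjusted p under 0.05). The part of any of these lists in the result was not tested, and in bulk nuclei fewer nuclei of a type and less RNA per nucleus cannot be told apart.

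**Figure D3:**
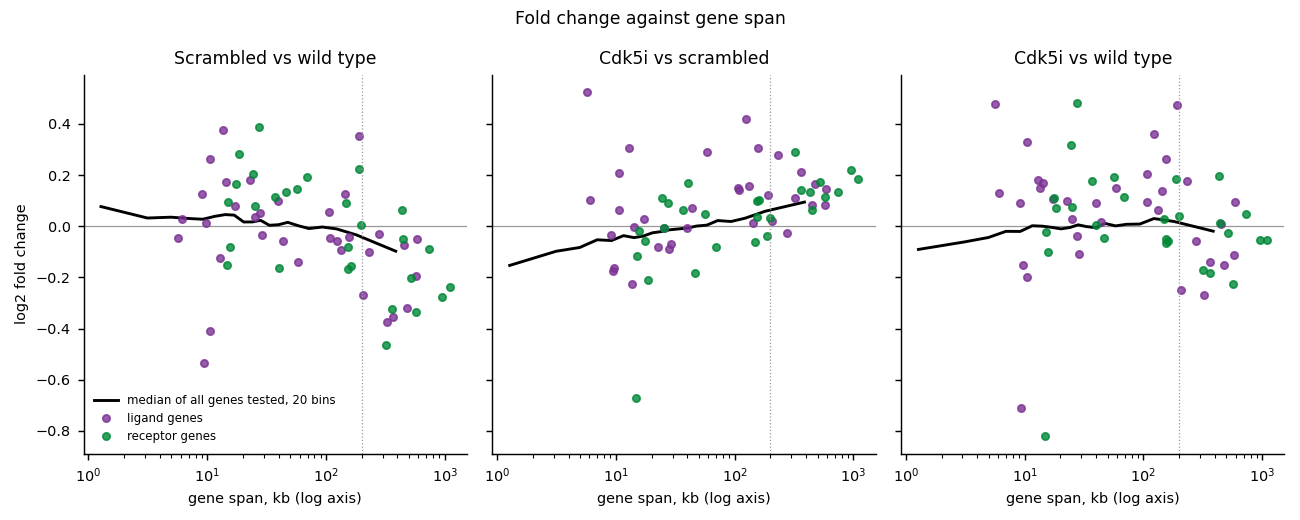
Log2 fold change of 62 guidance genes (points, ligands purple and receptors green) against gene span on a log axis, in the 3 comparisons; the line joins medians of all genes tested in 20 bins of span, and the dotted line marks 200 kb. Right of it 17 of 18 genes are below 0 for scrambled peptide against wild type and 17 of 18 above 0 for Cdk5i against scrambled peptide, and the line leans the same ways.

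Cdk5i peptide was next set against scrambled peptide, both in transgenic mice. All 3 libraries with Cdk5i were above the 3 with scrambled peptide for the receptors Neo1, Epha3, Epha6, Robo1 and Robo2 and the ligands Ntn3, Sema5b and Sema6a, and below them for Epha1. Again none of the 63 genes passed the edgeR test over all genes (lowest adjusted p = 0.872), where 0.0125% of all genes did, and DESeq2 called 0 of them, against 26 genes in all. Before adjustment 7 (11.1%) had p under 0.05, against 5.33% of all genes tested, 6 higher with Cdk5i (2.87% of all genes) and 1 lower (2.46%), and 41 had a log2 fold change above 0 (47.2% of all genes). These 9 genes whose groups did not overlap made up 14.3% (against 10.3% of all genes tested), 8 higher (4.95% of all genes) and 1 lower (5.38%). Because both comparisons use the scrambled libraries, a low value there enters each with opposite sign.

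Epha6 measured 717, 644 and 642 CPM with scrambled peptide and 769.5, 817 and 748 with Cdk5i, a log2 fold change of 0.22 (0.04 to 0.40). Epha3 measured 104, 94.2 and 106 CPM against 126, 134 and 112 with Cdk5i, a log2 fold change of 0.29 (0.04 to 0.54). For both, every Cdk5i library lay above every scrambled one. Robo2 measured 773, 765 and 705 CPM with Cdk5i, against 635 to 688 with scrambled peptide (log2 fold change 0.17, 0.01 to 0.34). Sema6a, a transmembrane ligand of plexins A2 and A4, measured 79.7, 73.3 and 84.6 CPM with scrambled peptide and 87.4, 92.5 and 84.8 with Cdk5i, groups that nearly touch (log2 fold change 0.16). Ntng2 measured 33.4, 36.7 and 32.7 CPM with scrambled peptide against 37.9, 51.4 and 36.1 with Cdk5i (log2 fold change 0.29), and 1 Cdk5i library, replicate 2, stood well above the others. The same library was high for Ntn3, at 2.01, 3.35 and 2.22 CPM against 1.74, 1.80 and 1.75 with scrambled peptide (log2 fold change 0.53, 0.04 to 1.01). Another gene on the same strand covers 30.2% of Ntn3, whose pairs there go uncounted.

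The 1 gene with a lower value and an unadjusted p under 0.05 was Plxna1, a receptor of class 3 and class 6 semaphorins, at 137, 131 and 123 CPM with scrambled peptide and 102, 125 and 117 with Cdk5i. These groups overlapped, and the log2 fold change was -0.18 (-0.35 to -0.01). Slit2 and Epha5, lower in the first comparison, had log2 fold changes of 0.11 (-0.07 to 0.29) and 0.14 (-0.02 to 0.31) between the peptides. Dcc had one of 0.18 (-0.01 to 0.38) and Ntng1 one of 0.21. All 4 netrins, all 3 Slits, all 3 ephrin-Bs, both netrin-Gs, Dcc and Neo1 had positive fold changes, whereas 3 of 4 EphB and 3 of 4 ephrin-A genes had negative ones; of all these only Ntn3 and Ntng2 had an unadjusted p under 0.05.

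Of the 18 long genes, 17 had positive fold changes between the peptides and only Efna5 a negative one (-0.03), with a median of 0.14. Over all 1059 genes longer than 200 kb, 833 were positive, with a median of 0.09. The 29 short guidance genes had a median of -0.01, with 11 positive. With the length trend taken out, 13 of the 18 were positive with a median of 0.05, and 0 of the 18 had an unadjusted p under 0.05, against 3 before. Of all 1059 genes over 200 kb, 553 were then positive with a median of 0.007, which again follows from the fit of the trend, and 8.5% had an unadjusted p under 0.05. Over all 63 genes the 7 with p under 0.05 became 3 (4.76%, against 4.87% of all genes tested), and Epha3, Epha6, Robo2 and Sema6a were no longer among them. The summed markers of striatal neurons were 2181, 2945 and 3203 CPM with scrambled peptide and 4307, 3142 and 3245 with Cdk5i. Of the 13 markers, 11 had positive fold changes between the peptides (median 0.18, 0 with an unadjusted edgeR p under 0.05). The part of these markers in the values above was not tested.

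**Figure D4:**
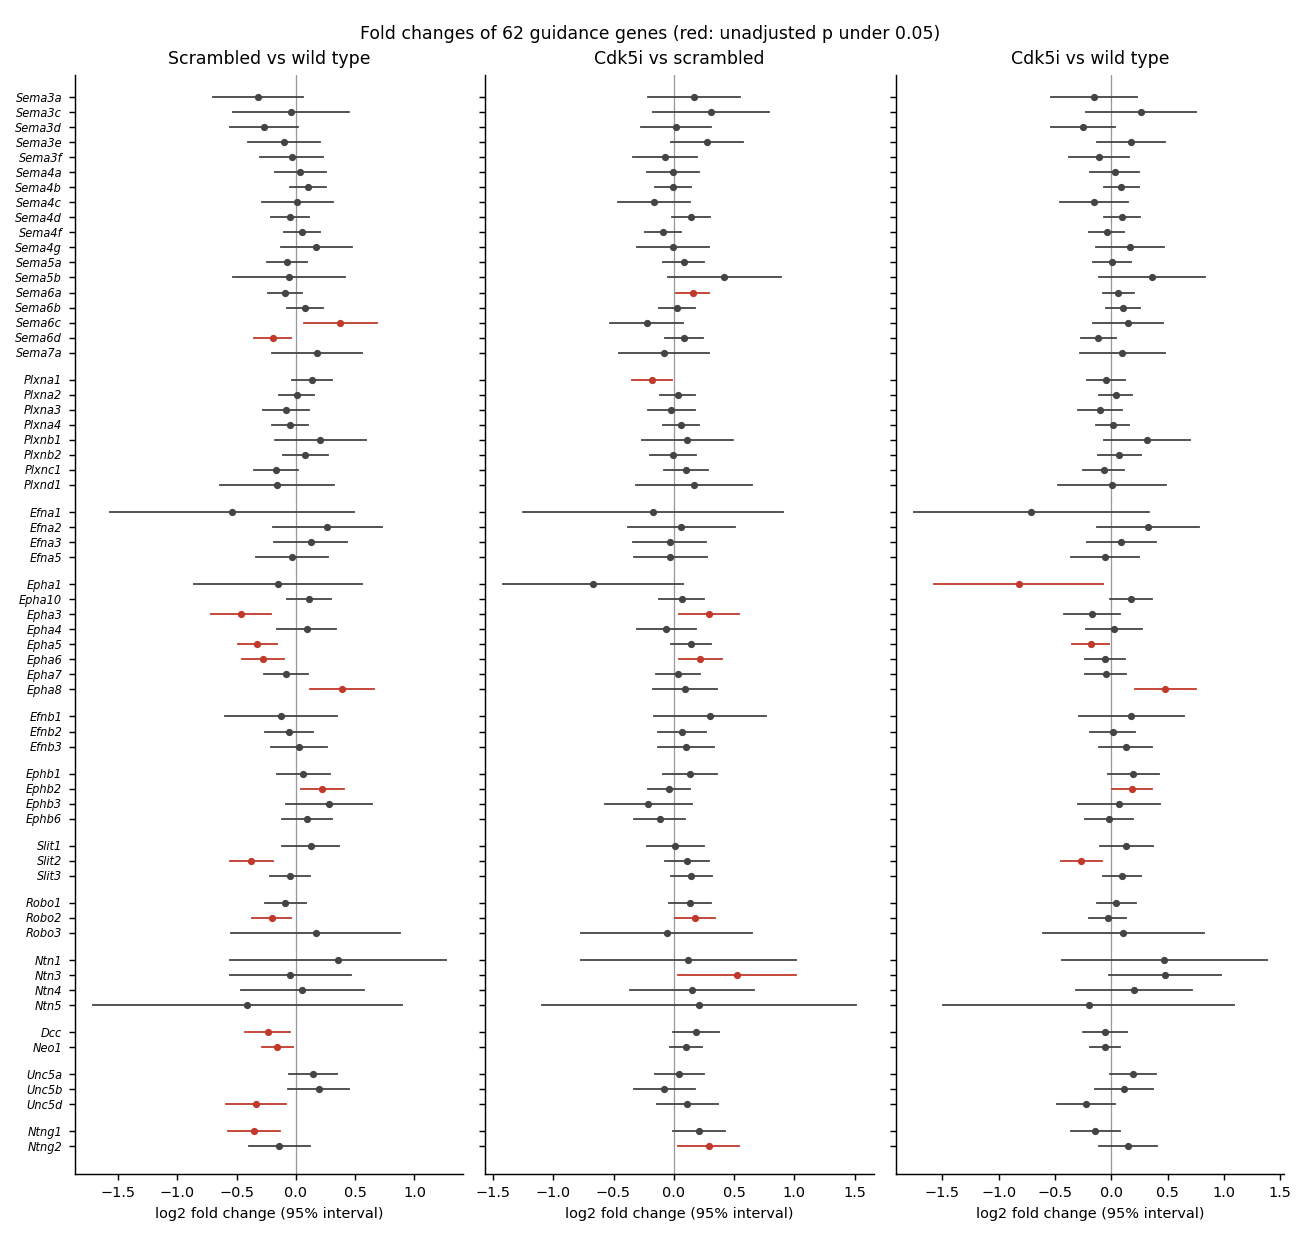
Log2 fold change (point) and 95% interval (line) of 62 guidance genes by family in the 3 comparisons, red where the unadjusted edgeR p was under 0.05. The red points are mostly left of 0 for scrambled peptide against wild type (10 of 13) and mostly right of it for Cdk5i against scrambled peptide (6 of 7).

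The third comparison, Cdk5i peptide against wild type, shares its groups with the other two. None of the 63 passed the edgeR test (lowest adjusted p = 0.216, where 0.0748% of all genes passed), and DESeq2 called 0 of them, against 115 genes in all. Before adjustment 5 (7.94%) had p under 0.05, against 11.0% of all genes tested, 2 higher (5.73%) and 3 lower (5.30%). Groups did not overlap for 8 (12.7%, against 16.3%), 5 higher (8.03% of all genes) and 3 lower (8.22%), and 38 had a log2 fold change above 0 (48.8% of all genes). Epha8 was the clearest, with a log2 fold change of 0.48 (0.21 to 0.75, edgeR adjusted p = 0.216, DESeq2 adjusted p = 0.0598), followed by Slit2 at -0.27 (-0.45 to -0.09, edgeR adjusted p = 0.293). Epha5 and Ephb2 had log2 fold changes of -0.18 (-0.35 to -0.02) and 0.18 (0.00 to 0.36). Epha1, a receptor found mainly in epithelia, was read at 0.617, 1.26 and 0.817 CPM in wild type and 0.446, 0.572 and 0.496 with Cdk5i, 156 counts in all, so that its log2 fold change of -0.82 has an interval of -1.57 to -0.07. The 18 long genes had a median log2 fold change of -0.06, with 6 positive. With the length trend taken out, 7 of the 63 genes had an unadjusted p under 0.05, these 5 among them. That is 11.1%, against 11.8% of all genes tested.

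Genes that work beside these ligands and receptors were read from 5 lists of 82 co-receptors, adaptors and cytoskeletal genes, of which 79 were tested (Draxin, Fes and Rras were not). None passed the edgeR test over all genes in any comparison. Before adjustment 9 (11.4%), 5 (6.33%) and 13 (16.5%) had p under 0.05 in the 3 comparisons in the order above, where 10.1, 5.33 and 11.0% of all genes tested did. Between the peptides, positive fold changes were found for 19 of 20 netrin and Slit effectors (median 0.09), among them the srGAP proteins that act below Robo, for 11 of 12 Eph effectors (median 0.09), 11 of 16 cytoskeletal genes of the growth cone (0.04), 10 of 17 co-receptors and partners (0.01) and 8 of 14 semaphorin and plexin effectors (0.02). The share was 47.2% of all genes tested, 60% of those of 50 to 200 kb, a span many listed genes have, and 78.7% of those over 200 kb. Only 1 of the 20 netrin and Slit effectors (5%) and 2 of the 12 Eph effectors (16.7%) had an unadjusted p under 0.05, against 5.33% of all genes tested.

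Dscaml1, an adhesion gene related to the netrin co-receptor DSCAM, measured 545, 611 and 497 CPM in wild type, 593, 500.2 and 512 with scrambled peptide and 739.8, 768 and 651 with Cdk5i. All 3 Cdk5i libraries lay above the other 6, with a log2 fold change of 0.43 (0.22 to 0.63) between the peptides and an edgeR adjusted p of 0.403. Abl2, a kinase that links receptors to actin, also had its 3 highest values with Cdk5i, at 144, 132 and 101 CPM, against 99.3, 97.4 and 98.2 with scrambled peptide and 90.5, 78.8 and 84.5 in wild type. Its log2 fold change was 0.35 between the peptides and 0.57 against wild type (edgeR adjusted p = 0.121). Tiam1, a Rac activator bound by Eph receptors, had a log2 fold change of 0.29 between the peptides, and Sipa1l1, a spine regulator bound by Epha4, one of 0.21.

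For scrambled peptide against wild type the listed genes with the lowest p were Anks1 (log2 fold change 0.25), an adaptor of Eph receptors, the adhesion genes Nrcam (-0.24) and Chl1 (-0.28), which partner neuropilins, and Cntn2 (0.21). Their edgeR adjusted p values lay between 0.329 and 0.413. Anks1 measured 80.3, 94.1 and 87.6 CPM in wild type, 111, 96.9 and 105 with scrambled peptide and 115, 123 and 104 with Cdk5i, so that all 6 transgenic libraries lay above wild type. Its log2 fold change for Cdk5i against wild type was 0.39 (edgeR adjusted p = 0.121). Mical3, of the enzymes that oxidise actin below plexins, had a log2 fold change of 0.19 in that comparison (edgeR adjusted p = 0.338).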

How the data were processed

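RNA of NeuN-sorted nuclei was extracted with a kit for fixed tissue and made into stranded total RNA libraries, read as pairs of 40 bases, per the labels' protocols. The authors deposited whole-number counts per gene, 1 table per library, not normalised. They were made with featureCounts 2.0.0 over whole genes, as pairs with reversed strand, on Ensembl release 102 (GRCm38), per the file headers; pairs in several genes of a strand are left out by default. STAR 2.7.9a and DESeq2 1.36.0 appear in the submitters' processing notes without a role. Symbols were found for 55141 of 55401 genes.

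The test used edgeR 4.0.16 (R 4.3.3): filterByExpr by group (minimum count 10), TMM, and 1 robust quasi-likelihood model of 3 group means over the 9 libraries, with 6 residual degrees of freedom, tested per comparison with Benjamini-Hochberg adjustment at 0.05 over 16046 genes. All 63 guidance genes passed the filter. Standard errors are the log2 fold change over the square root of F. The fit was tested on simulated counts with planted changes larger than any guidance fold change here. That test does not show what the fit can find at the sizes reported. Alternatives were DESeq2 1.42.0, its size factors, other filters, only the groups compared, a replicate block, non-robust dispersion, an offset for gene length (lowess, span 0.3, per library) and leaving out each library.

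The members and lists were chosen with earlier results of these data known. Genes named with values were those past the threshold, up to 6 per direction and comparison with the lowest unadjusted p under 0.05, and the 2 highest per family by length-scaled level; of the pathway lists, up to 4 per comparison. Other genes named, and the length classes of 50 and 200 kb, were chosen after values were seen.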

Additional observations from a re-analysis of the deposited data

How the results depend on the processing

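Without a low-count filter edgeR called 7 guidance genes for scrambled peptide against wild type (Epha3, Epha5, Epha6, Epha8, Ntng1, Slit2 and Unc5d), 2 between the peptides (Epha3 and Sema3e) and 2 for Cdk5i against wild type (Epha8 and Slit2), beside 318, 159 and 408 genes in all. In that fit the median of the prior degrees of freedom was infinite, so for many genes their own spread was not used. Whether this held for the guidance genes called was not looked at. DESeq2 called 3, 0 and 0 guidance genes and 75, 26 and 115 genes in all of 32394 with a count, against 13, 2 and 12 of 16046 in the edgeR test reported. In the other 6 settings that kept all libraries, and with each library left out in turn (0 to 0 in each comparison), no guidance gene was called. For scrambled peptide against wild type and Cdk5i against wild type the genes called in all numbered 2 and 2 with a replicate block, 6 and 3 with non-robust dispersion, 5 and 1 with a mean count of at least 50, and 2 for the latter with only the groups compared. Leaving out a library gave 2 to 17, 2 to 18 and 2 to 14 genes in all for the 3 comparisons. Of the 21 fold changes of guidance genes chosen by lowest unadjusted p (up to 6 per direction), 0 changed sign in 354 values under the alternatives. They were picked for low p in the same libraries that the alternatives use, so a change of sign was unlikely and its absence is no support. Over all 63 guidance genes, 7, 12 and 0 changed sign in the 3 comparisons with the length trend taken out. None of these was larger than 0.0883 on the log2 scale before. With the length trend taken out, the median log2 fold change of the 18 long genes was -0.0966 for scrambled peptide against wild type, in place of -0.2212, and 0.0465 between the peptides, in place of 0.1376. With a library left out, 15 to 17 of the long genes were negative in the first comparison and 16 to 18 positive in the second. Replicate numbers are not stated to pair the libraries, and with 3 libraries per group their deviations from group means cannot settle it. Deviations of same-numbered libraries correlated at -0.435 to 0.264, and of other numbers at -0.231 to 0.402. Same-numbered pairs gave 0.264, 0.136 and 0.124 between wild type and scrambled peptide, -0.266, -0.181 and -0.32 between the peptides, and -0.26, -0.435 and 0.046 between wild type and Cdk5i. With the replicate block the lowest edgeR adjusted p of a guidance gene was 0.442, 0.996 and 0.399. Genes under about 1 CPM, such as Efna1 and Epha1, are limited by depth.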
